A study of Mus musculus with 8 samples.

Results

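The 6 interferon and IL-10 receptor chains Ifngr1, Ifngr2, Ifnar1, Ifnar2, Il10ra and Il10rb were followed in regulatory T cells (Tregs). They were chosen by name, as the class II cytokine receptor chains for interferon gamma, type I interferons and IL-10, and found in both deposited tables by their Ensembl gene identifiers. They are 6 of the 47069 Ensembl genes that both tables held, and all 6 were among the 12273 genes high enough to be tested. Their identifiers are ENSMUSG00000020009 (Ifngr1), ENSMUSG00000022965 (Ifngr2), ENSMUSG00000022967 (Ifnar1), ENSMUSG00000022971 (Ifnar2), ENSMUSG00000032089 (Il10ra) and ENSMUSG00000022969 (Il10rb). Both Treg populations were sorted from lymph nodes of C57BL/6 mice, aged 6 to 8 weeks, of the cross 35EbiT × Blimp1-GFP KI, so that every animal carried 35EbiT as well as a knock-in GFP that reports Blimp1, the product of Prdm1. Ebi3-Treg were the Thy1.1+ cells without Blimp1 reporter signal, and Blimp1-Treg were the cells with that signal that lacked Thy1.1. In addition both gates required CD4 and CD25, among other criteria, and the stated typical purity was above 90%. The question was how the transcriptomes of the 2 reporter-defined populations differ. Each population had 4 low-input RNA sequencing libraries, numbered 1 to 4. The labels do not say what drives the 35EbiT reporter, whether animals were pooled, or which animals stand behind which library, so a p-value here reflects the spread among libraries, part of which may be technical.

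Class II cytokine receptors work as pairs of chains that sit on Janus kinases and pass the signal to STAT proteins. The interferon gamma receptor joins the ligand-binding chain Ifngr1 to the signalling chain Ifngr2, and in T cells the amount of Ifngr2 is known to be regulated and to limit the response. Type I interferons bind Ifnar2 tightly and recruit Ifnar1. IL-10 binds Il10ra, the chain found mainly on blood cells, and shares its widely expressed partner Il10rb with IL-22 and the lambda interferons. In Tregs, IL-10 signalling through its receptor sustains suppressive function, and interferon gamma signalling has been linked to loss of that function in mouse tumours.

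Values are FPKM (fragments per kilobase of gene and per M fragments, M being mega), a level that can be compared between genes. Replicates 1 and 2 of both populations stood in one table and replicates 3 and 4 in another. Depth was 13.3 to 25.6 M fragments in Ebi3-Treg libraries and 14.7 to 31.3 M in Blimp1-Treg libraries, and each of the 6 chains was covered by at least 441 fragments in every library, an estimate from the reference exon length. Ebi3 and Prdm1 followed the labels. Ebi3 averaged 29.6 ± 11.7 FPKM in Ebi3-Treg libraries, against 7.67 ± 2.84 FPKM in Blimp1-Treg libraries. Prdm1 averaged 3.31 ± 1.0 FPKM in Ebi3-Treg libraries, against 94.2 ± 29.6 FPKM in Blimp1-Treg libraries (SD, n = 4 each). Thy1 overlapped between the populations, at 17.4 to 40.4 FPKM in Ebi3-Treg and 13.7 to 29.6 FPKM in Blimp1-Treg. Higher on average in Ebi3-Treg, it did not pass in limma (adjusted p = 0.375), but did with the replicate number as a block (limma adjusted p = 0.0136). Foxp3, the defining factor of Tregs, averaged 292 ± 90.0 FPKM in Ebi3-Treg libraries and 313 ± 95.6 FPKM in Blimp1-Treg libraries. Libraries numbered 1 stood apart in B cell transcripts, where the 8 markers summed to 248 FPKM (Ebi3-Treg 1) and 171 FPKM (Blimp1-Treg 1), against at most 72.6 FPKM in the other 6 libraries. The tables also differed in Xist, which was at most 0.0750 FPKM in the libraries of the first table and 18.5 to 24.4 FPKM in those of the second.

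Of the 6 chains, 4 lie next to each other on mouse chromosome 16, in the order Ifnar2, Il10rb, Ifnar1, Ifngr2, while Ifngr1 lies on chromosome 10 and Il10ra on chromosome 9. The 250 bases before the start of 3 cluster genes are shown because Ifngr2 and Ifnar2 passed the test between populations and Ifnar1, which lies between them, did not. Sequences are from RefSeq (build GRCm38.p6, + strand), at chr16:91546809-91547058 for Ifngr2, chr16:91372533-91372782 for Ifnar2 and chr16:91484965-91485214 for Ifnar1, and RefSeq promoters were matched for 4 of the 6 chains. Capitals mark matches, on either strand, to GNGAAAGT, core letters of the element that the repressor Blimp1 binds, and to TTCNNNGAA, the site of STAT dimers (GAS).
Ifngr2 promoter: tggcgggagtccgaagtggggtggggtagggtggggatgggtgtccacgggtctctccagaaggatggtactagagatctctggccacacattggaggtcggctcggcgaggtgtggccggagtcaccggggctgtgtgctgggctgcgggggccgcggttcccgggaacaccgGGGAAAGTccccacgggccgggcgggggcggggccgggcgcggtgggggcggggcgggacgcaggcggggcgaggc
Ifnar2 promoter: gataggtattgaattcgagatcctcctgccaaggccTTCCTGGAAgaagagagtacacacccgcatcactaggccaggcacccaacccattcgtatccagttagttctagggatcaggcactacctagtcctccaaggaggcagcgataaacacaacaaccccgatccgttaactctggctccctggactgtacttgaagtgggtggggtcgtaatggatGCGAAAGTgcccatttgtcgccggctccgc
Ifnar1 promoter: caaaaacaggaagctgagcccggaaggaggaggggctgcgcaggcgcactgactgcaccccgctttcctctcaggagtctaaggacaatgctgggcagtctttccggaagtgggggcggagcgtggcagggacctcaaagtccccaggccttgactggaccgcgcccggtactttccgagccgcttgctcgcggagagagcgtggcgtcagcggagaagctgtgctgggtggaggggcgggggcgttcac
Ifngr2 held 1 match to GNGAAAGT, 76 bases before its start, which overlapped a match to the NF-kB core GGAANNNCC. Ifnar2 held 1 match to GNGAAAGT, 30 bases before its start, and 1 GAS match 214 bases before it. Neither motif was found in the windows of Ifnar1 and Ifngr1. Of all 32851 promoter windows of this length, 3.53% held GNGAAAGT, 7.02% held TTCNNNGAA and 15.7% held GGAANNNCC. The interferon-stimulated response core GAAANNGAA was in none of the 4 windows and in 7.13% of all. GC content was 74.0% for Ifngr2, 65.6% for Ifnar1, 59.2% for Ifngr1 and 54.0% for Ifnar2, against a median of 52.4% over all promoters. ETS letters (CCGGAAGT), the GC box (GGGGCGGGG) and CCAAT were searched too, and were in 2.88%, 10.4% and 33.8% of all windows. Ifnar1 held 1 ETS and 1 GC box match, Ifngr2 2 GC box and 1 CCAAT match, Ifngr1 2 CCAAT matches and Ifnar2 none. The motifs were chosen after the sequences had been seen, and a match describes letters, not binding.

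Ifngr2, the signalling chain of the interferon gamma receptor, differed most among the 6 chains and was higher in Ebi3-Treg. Its FPKM was 38.7, 76.6, 29.6 and 30.1 in Ebi3-Treg 1 to 4, against 14.2, 12.5, 11.3 and 7.97 in Blimp1-Treg 1 to 4. The lowest Ebi3-Treg library stood above the highest Blimp1-Treg library, and Ebi3-Treg 2 was the highest of all. The means were 43.7 ± 22.3 FPKM in Ebi3-Treg libraries and 11.5 ± 2.62 FPKM in Blimp1-Treg libraries (SD, n = 4 each). The log2 fold change, Ebi3-Treg minus Blimp1-Treg on log2(FPKM + 1), was 1.75 with a standard error (SE) of 0.24 and a 95% interval of 1.21 to 2.30 (limma adjusted p = 0.00542). It was 1.96 within the first table and 1.55 within the second. In bulk RNA, fewer cells of a type and less RNA per cell cannot be told apart. The 8 markers of myeloid and dendritic cells, which also use this receptor, summed to 11.2 to 106 FPKM in Ebi3-Treg and 5.36 to 32.5 FPKM in Blimp1-Treg. Most of that sum was Lyz2, at 99.1, 91.1, 8.00 and 20.4 FPKM in Ebi3-Treg 1 to 4 and 29.9, 7.90, 3.74 and 8.44 FPKM in Blimp1-Treg 1 to 4. The log2 fold change of Lyz2 was 1.79 and did not pass (limma adjusted p = 0.0920). With the replicate number as a block it passed (limma adjusted p = 0.0160). Other defining markers were low and did not share one direction. Csf1r reached at most 2.40 FPKM in Ebi3-Treg libraries, against 0.836 FPKM in Blimp1-Treg libraries. Adgre1 was 0.448 to 1.80 FPKM in Ebi3-Treg and 0.0322 to 0.192 FPKM in Blimp1-Treg, without overlap. Itgax was 0.161 to 1.55 FPKM in Ebi3-Treg and 0.0666 to 0.499 FPKM in Blimp1-Treg. Cd14 reached 0.249 FPKM in Ebi3-Treg libraries, against 1.73 FPKM in Blimp1-Treg libraries. Itgam was at most 0.124 FPKM in Ebi3-Treg, where it was listed at 0 in 1 library, and 0.144 to 0.293 FPKM in Blimp1-Treg. The part of these cells in the Ifngr2 difference was not tested.

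Ifngr1, the ligand-binding partner of Ifngr2, was by far the most abundant chain in both populations and pointed the other way. It had 441, 723, 626 and 578 FPKM in Ebi3-Treg 1 to 4, against 775, 1238, 788 and 674 FPKM in Blimp1-Treg 1 to 4. The groups overlapped over all libraries, because Ebi3-Treg 2 was above Blimp1-Treg 4, but within each table both Ebi3-Treg libraries were below both Blimp1-Treg libraries. The means were 592 ± 117 FPKM in Ebi3-Treg libraries and 868 ± 251 FPKM in Blimp1-Treg libraries (SD, n = 4 each). The log2 fold change was -0.54 (SE 0.23, 95% interval -1.06 to -0.01) and did not pass (limma adjusted p = 0.263). With the replicate number as a block it passed (limma adjusted p = 0.0231), and it was -0.34 without Ebi3-Treg 1 (0.378) and -0.35 without Blimp1-Treg 2 (0.409).

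Ifnar2, the high-affinity chain of the type I interferon receptor, was the second chain that passed, and its values were the tightest. It had 78.3, 75.8, 81.0 and 75.6 FPKM in Ebi3-Treg 1 to 4, against 49.8, 40.6, 50.4 and 47.0 FPKM in Blimp1-Treg 1 to 4. The populations did not overlap, and the means were 77.7 ± 2.55 FPKM in Ebi3-Treg libraries and 46.9 ± 4.48 FPKM in Blimp1-Treg libraries (SD, n = 4 each). The log2 fold change was 0.72 (SE 0.12, 95% interval 0.44 to 1.0, limma adjusted p = 0.0130), with 0.76 in the first table and 0.67 in the second. The call was lost without Ebi3-Treg 3, Ebi3-Treg 4, Blimp1-Treg 3 or Blimp1-Treg 4 (limma adjusted p = 0.0658, 0.0579, 0.0508 and 0.0683), while the log2 fold change stayed between 0.65 and 0.77 when any 1 library was left out.

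Ifnar1, the partner of Ifnar2, did not pass. It had 84.9, 68.9, 95.8 and 86.7 FPKM in Ebi3-Treg 1 to 4, against 63.6, 49.2, 97.2 and 81.1 FPKM in Blimp1-Treg 1 to 4. In the first table both Ebi3-Treg libraries were above both Blimp1-Treg libraries, and in the second the populations overlapped. The log2 fold change was 0.24 (SE 0.16, 95% interval -0.13 to 0.61, limma adjusted p = 0.527), with 0.44 in the first table and 0.04 in the second.

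Il10ra, the specific chain of the IL-10 receptor, was lower on average in Ebi3-Treg without passing the test. It had 33.1, 14.3, 44.3 and 45.4 FPKM in Ebi3-Treg 1 to 4, against 72.5, 24.9, 74.9 and 59.7 FPKM in Blimp1-Treg 1 to 4. The libraries numbered 2 were the lowest of both populations, so that the groups overlapped although the Ebi3-Treg library was below the Blimp1-Treg library of the same number at all 4 numbers. The log2 fold change was -0.75 (SE 0.37, 95% interval -1.60 to 0.09, limma adjusted p = 0.337). With the replicate number as a block it passed (limma adjusted p = 0.00615), and it also passed without both libraries numbered 1 (log2 fold change -0.63, limma adjusted p = 0.0146) and without both numbered 2 (-0.75, limma adjusted p = 0.0159). With a single library left out it did not pass: it was -0.41 without Blimp1-Treg 1 (limma adjusted p = 0.523), -0.48 without Ebi3-Treg 2 (0.519) and -1.01 without Blimp1-Treg 2 (0.157).

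Il10rb, the shared chain, differed little. It had 53.2, 62.5, 66.8 and 68.1 FPKM in Ebi3-Treg 1 to 4, against 47.1, 46.9, 61.3 and 52.7 FPKM in Blimp1-Treg 1 to 4. Within each table both Ebi3-Treg libraries were above both Blimp1-Treg libraries, but over all 8 the populations overlapped. The log2 fold change was 0.27 (SE 0.12, 95% interval -0.01 to 0.54, limma adjusted p = 0.295, and 0.0623 with the replicate number as a block).

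**Figure D1:**
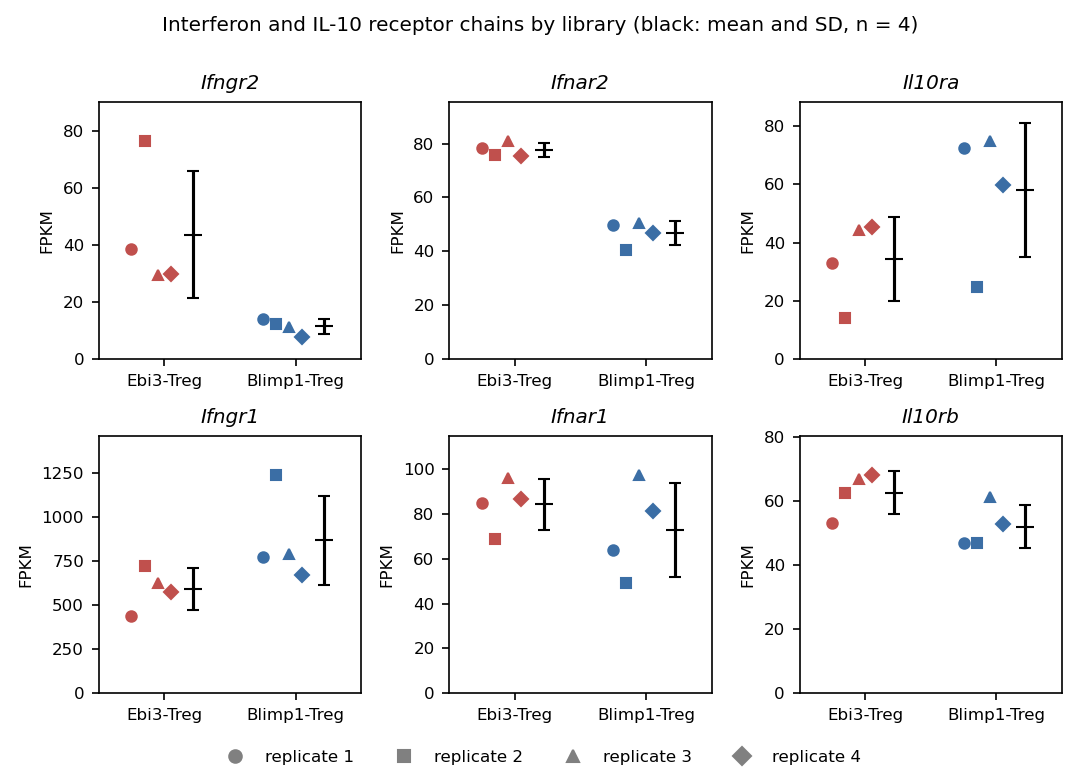
FPKM of each receptor chain (y axis, linear, from 0) in the 4 Ebi3-Treg and the 4 Blimp1-Treg libraries, with marker shape for the replicate number and black bars for the mean and SD. Ifngr2 and Ifnar2 do not overlap between populations, and the libraries numbered 2 are the lowest of both populations for Il10ra.

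Over the 6 chains, 2 were higher in Ebi3-Treg and none was lower at an adjusted p under 0.05 in limma, while 6.29% of all tested genes passed, 3.37% higher and 2.93% lower. Unadjusted p was under 0.05 for 3 chains, Ifngr1 being the third, and for 2282 of the 12273 genes. Libraries of the populations did not overlap for 2 chains, both higher in Ebi3-Treg, against 11.1% of all genes, 6.63% being higher in Ebi3-Treg. A further count, of chains with no overlap within either table and the same direction in both, came to 4, against 19% of all genes. With the replicate number as a block, 2 chains were higher and 2 lower, against 22.4% of all genes called, 13.5% higher and 8.94% lower. In the second table alone 2 chains passed, Ifngr2 and Ifnar2 (limma adjusted p = 0.0124 and 0.0156), against 11% of all genes, 5.51% being higher, but leaving out Blimp1-Treg 3 left 1 chain called there, and leaving out Ebi3-Treg 3, Ebi3-Treg 4 or Blimp1-Treg 4 left 0. In the first table alone limma called 0% of the tested genes and no chain, and 1 chain and 707 of the 12273 genes had an unadjusted p under 0.05, while with the replicate number as a block it called 5 chains and 23.3% of all genes. With 4 libraries that blocked fit has 1 residual degree of freedom per gene, so its calls rest largely on variance pooled over genes. A difference between the tables in the size of the contrast was called for none of the 6 chains and for 0% of all genes (unadjusted p from 0.244 to 0.865 over the chains).

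**Figure D2:**
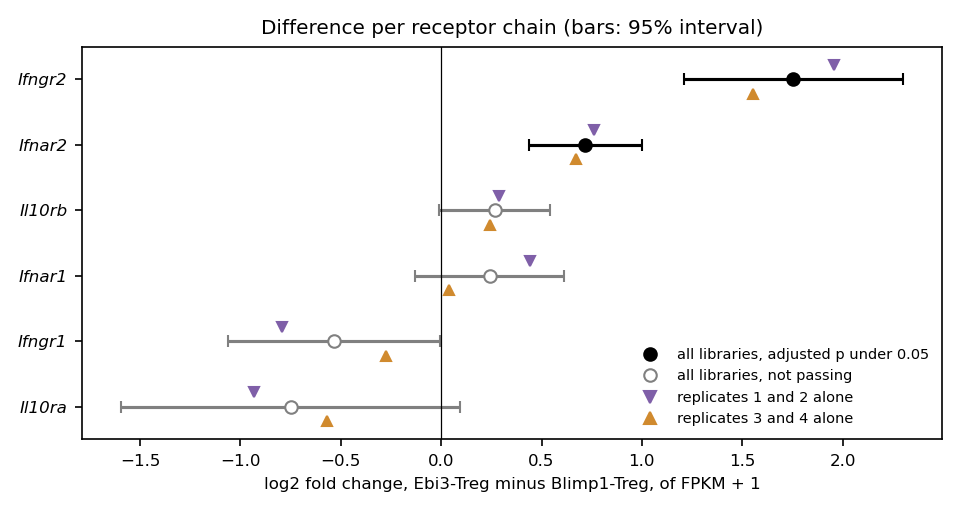
Log2 fold change of each chain, Ebi3-Treg minus Blimp1-Treg on log2(FPKM + 1), over all libraries with its 95% interval (circles, filled where the adjusted p is under 0.05) and within each table (triangles). Ifngr2 and Ifnar2 lie to the right of 0 in every estimate, Ifngr1 and Il10ra to the left, and Ifnar1 is near 0 in replicates 3 and 4.

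The order of the levels differed between the populations below its first 2 places. In Ebi3-Treg the order of mean FPKM was Ifngr1, Ifnar1, Ifnar2, Il10rb, Ifngr2, Il10ra, and only Ifngr1 with Ifnar1 and Ifnar2 with Il10rb were neighbours whose libraries did not overlap. In Blimp1-Treg it was Ifngr1, Ifnar1, Il10ra, Il10rb, Ifnar2, Ifngr2, and only Ifngr1 with Ifnar1 and Ifnar2 with Ifngr2 did not overlap. By its mean over all libraries Ifngr1 stood at percentile 99.3 of the tested genes, Ifnar1 at 85.3, Ifnar2 at 81.0, Il10rb at 79.2, Il10ra at 74.5 and Ifngr2 at 62.6. The rarer chain of the interferon gamma receptor was thus the one that passed.

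The balance of the partner chains was then compared within each library. Ifngr1 exceeded Ifngr2 by 11.4, 9.43, 21.1 and 19.2 times in FPKM in Ebi3-Treg 1 to 4, against 54.7, 99.1, 69.8 and 84.6 times in Blimp1-Treg 1 to 4. Ifngr1 was in excess in every library, and the excess was smaller in all 4 Ebi3-Treg libraries. The log2 difference of Ifngr2 minus Ifngr1 averaged -3.82 ± 0.56 in Ebi3-Treg and -6.11 ± 0.36 in Blimp1-Treg (SD, n = 4 each), a difference of 2.29. The exact permutation test gave p = 0.0286, the smallest that its 70 splits allow (two-sided, adjusted p = 0.0429 over the 3 receptors). The difference was 2.75 within the first table and 1.83 within the second.

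Type I receptor chains were closer to parity. The ratio of Ifnar2 to Ifnar1 was 0.922, 1.1, 0.845 and 0.872 in Ebi3-Treg 1 to 4, against 0.783, 0.826, 0.519 and 0.580 in Blimp1-Treg 1 to 4. Every Ebi3-Treg library had a higher share of Ifnar2, and the log2 difference between the chains averaged -0.10 ± 0.17 in Ebi3-Treg and -0.58 ± 0.32 in Blimp1-Treg (SD, n = 4 each). The 2 populations differed by 0.48 (exact permutation test, two-sided p = 0.0286, adjusted p = 0.0429), with 0.32 in the first table and 0.64 in the second. For the IL-10 receptor, the ratio of Il10ra to Il10rb was 0.623, 0.228, 0.664 and 0.666 in Ebi3-Treg 1 to 4, against 1.54, 0.531, 1.22 and 1.13 in Blimp1-Treg 1 to 4. Blimp1-Treg 2 fell among the Ebi3-Treg values, and the difference of -1.02 on the log2 scale did not pass (exact permutation test, two-sided p = 0.114, adjusted p = 0.114). Without Blimp1-Treg 2 it was -1.33 and passed (exact permutation test, adjusted p = 0.0286). Permuting only within tables allows no p under 0.0556, and flipping signs within replicate numbers none under 0.125. Both Ifngr2 with Ifngr1 and Ifnar2 with Ifnar1 reached those smallest values of the exact tests. Il10ra with Il10rb also reached 0.125 in the sign-flip test, but had p = 0.111 in the exact test within tables.

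**Figure D3:**
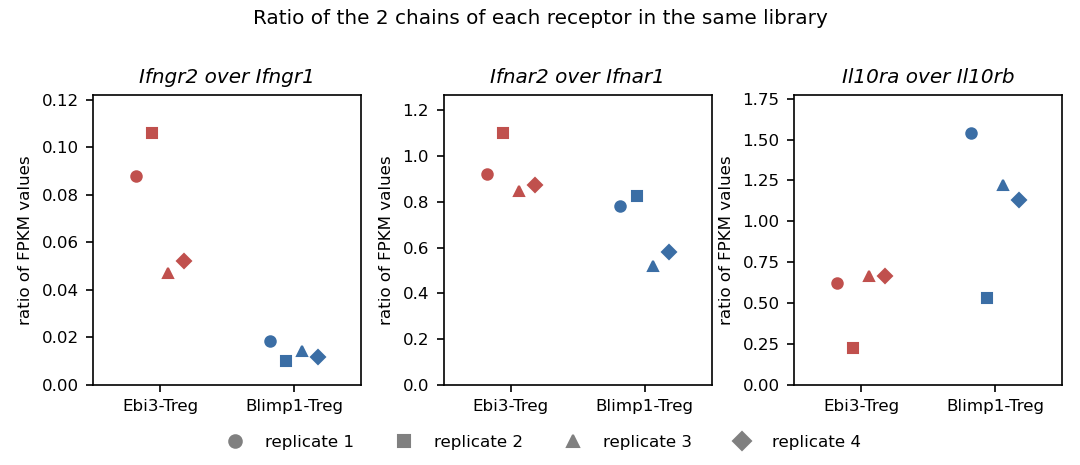
FPKM ratio of the chains of each receptor within the same library (y axis, linear, from 0), with marker shape for the replicate number. Ifngr2 over Ifngr1 and Ifnar2 over Ifnar1 are higher in every Ebi3-Treg library than in any Blimp1-Treg library, while Il10ra over Il10rb overlaps through the Blimp1-Treg 2 library.

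The genes around the chromosome 16 cluster did not pass. The neighbours were 12 protein-coding genes from Synj1 to Atp5o, with Rik and Gm models left out and more genes on the Ifngr2 side. Olig2 and Olig1 were too low to be tested. The other 10 had limma adjusted p from 0.564 to 0.981, with 0 at an unadjusted p under 0.05. Over all tested genes 6.29% passed, and 2282 of 12273 had an unadjusted p under 0.05. With the replicate number as a block, 2 neighbours had an unadjusted limma p under 0.05, both higher in Ebi3-Treg, and 0 were called. Of all genes, 4460 had such a p with that block and 22.4% were called. Their median log2 fold change was -0.02, against 0.07 over all tested genes. Tmem50b, next to Ifngr2, was at 0.28, Dnajc28 at 0.20, Gart, an enzyme of purine synthesis, at 0.33 and Son, a splicing cofactor, at -0.02. Farther out Donson was at -0.14, Cryzl1 at -0.03, Itsn1 at -0.20 and Atp5o at -0.04. On the Ifnar2 side Paxbp1 was at -0.09 and Synj1 at 0.07. Within the cluster, all 4 receptor chains had positive log2 fold changes, as did 7270 of the 12273 tested genes. Only its outer members Ifnar2 and Ifngr2 passed. The reference annotation holds a readthrough gene, Gm21970, that shares 315 exon bases with Ifnar2 and 569 with Il10rb. It was listed at 0 in all 8 libraries, and how reads in the shared bases were counted is not given in the sources used here.

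**Figure D4:**
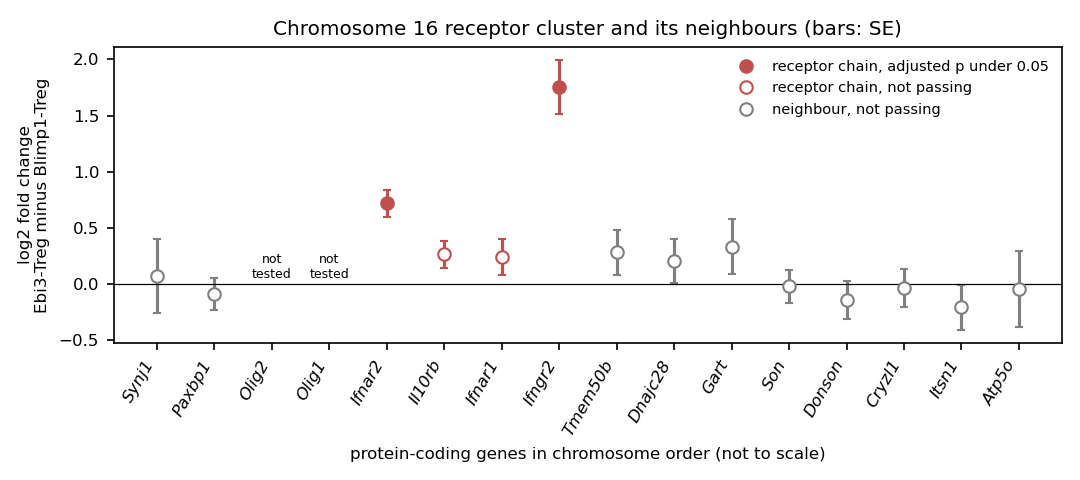
Log2 fold change with its SE (y axis, Ebi3-Treg minus Blimp1-Treg) for the receptor cluster and its neighbours in chromosome order, not to scale. The filled points are Ifnar2 at 0.72 and Ifngr2 at 1.75, and the tested neighbours lie between -0.20 and 0.33.

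Among the ligands, Il10 itself was far lower in Ebi3-Treg, by much more than either chain of its receptor. It had 3.55, 6.13, 3.84 and 7.26 FPKM in Ebi3-Treg 1 to 4, against 414, 613, 80.3 and 172 FPKM in Blimp1-Treg 1 to 4. No library of Ebi3-Treg came near those of Blimp1-Treg, and the log2 fold change was -5.35 (SE 0.50, limma adjusted p = 0.00124). Ifng, the ligand of the Ifngr chains, had 16.1, 106, 15.8 and 21.6 FPKM in Ebi3-Treg 1 to 4, against 25.5, 52.5, 26.6 and 37.7 FPKM in Blimp1-Treg 1 to 4. The populations overlapped, and the log2 fold change of -0.28 (limma adjusted p = 0.890) had the opposite sign to the difference of the means, in which Ebi3-Treg 2 weighed most. Il22, which signals through Il10rb, had a log2 fold change of 1.05 that did not pass (limma adjusted p = 0.384). The other 11 of the 14 ligands, type I and lambda interferons among them, were too low to be tested and reached at most 0.403 FPKM. Of 6 further class II receptor chains, only Il20rb was tested (log2 fold change 0.03, limma adjusted p = 0.977), and the other 5, among them the lambda interferon receptor chain Ifnlr1, reached at most 1.0 FPKM.

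None of the 8 kinases, STAT proteins and interferon regulatory factors downstream of the chains passed in limma, and none had an unadjusted p under 0.05. Over all tested genes 6.29% passed, and 2282 of 12273 had an unadjusted p under 0.05. Their median log2 fold change was -0.14. Irf1, a transcription factor induced by interferons, was at -0.24, the receptor kinase Jak2 at -0.18, Jak1, the kinase that all these receptors use, at 0.30, and Irf9, the DNA-binding part of the type I interferon complex, at 0.13. With the replicate number as a block Jak1 passed (limma adjusted p = 0.0360). The kinase Tyk2 was at -0.35 over both tables (limma adjusted p = 0.800). Within the second table alone Tyk2 passed as lower (-0.52, limma adjusted p = 0.0251), as did 671 of the 12273 genes.

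Inhibitors of this signalling were higher in Ebi3-Treg for 2 of 8, with none lower, and 7 of 8 log2 fold changes were positive (median 0.40). Over all tested genes 3.37% were higher, 2.93% lower, and 7270 of 12273 log2 fold changes were positive. Socs1, the inhibitor that interferons induce and that blocks Janus kinases, had 197, 241, 197 and 152 FPKM in Ebi3-Treg 1 to 4, against 96.6, 53.2, 79.5 and 69.0 FPKM in Blimp1-Treg 1 to 4. The populations did not overlap, and the log2 fold change was 1.40 (SE 0.22, limma adjusted p = 0.00893). Ptpn6, the phosphatase SHP-1, had 379, 305, 348 and 385 FPKM in Ebi3-Treg 1 to 4, against 193, 151, 258 and 231 FPKM in Blimp1-Treg 1 to 4. Its libraries did not overlap either, and its log2 fold change was 0.79 (SE 0.16, limma adjusted p = 0.0249), but the call was lost when any library other than Ebi3-Treg 1 or Blimp1-Treg 2 was left out (limma adjusted p up to 0.0952), and with no filter on low values or no table term. Usp18, which binds Ifnar2 and dampens type I interferon signalling, averaged 94.8 ± 41.4 FPKM in Ebi3-Treg libraries and 38.3 ± 31.1 FPKM in Blimp1-Treg libraries (SD, n = 4 each). Its log2 fold change of 1.49 did not pass over both tables (limma adjusted p = 0.0658), but did so with the replicate block (0.00191) and within the second table alone (log2 fold change 1.85, limma adjusted p = 0.0423). Of the 8 inhibitors, 4 were higher there and none lower, against 5.51% of all genes higher. Pias1, an inhibitor of STAT proteins, was at 0.21 over both tables.

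Genes of the interferon gamma response were read beside the chains of its receptor. Of 23 tested out of 27, none was higher and 2 were lower in Ebi3-Treg, and 16 of the 23 log2 fold changes were negative, with a median of -0.28. Over all tested genes 2.93% were lower, and 5003 of 12273 log2 fold changes were negative. Iigp1, a GTPase induced by interferon gamma, had 29.0, 25.6, 23.8 and 31.2 FPKM in Ebi3-Treg 1 to 4, against 65.4, 62.7, 41.5 and 43.5 FPKM in Blimp1-Treg 1 to 4. The populations did not overlap, and the log2 fold change was -0.91 (SE 0.17, limma adjusted p = 0.0185). It was -1.20 within the first table and -0.62 within the second, where it did not pass (limma adjusted p = 0.0633). Igtp, a GTPase of the same kind, averaged 160 ± 41.1 FPKM in Ebi3-Treg libraries and 259 ± 85.9 FPKM in Blimp1-Treg libraries (SD, n = 4 each), with overlap. Its log2 fold change was -0.66 (SE 0.15, limma adjusted p = 0.0389), with -0.82 in the first table and -0.50 in the second. Neither call held throughout: that on Iigp1 was lost without Ebi3-Treg 2, Ebi3-Treg 3, Blimp1-Treg 1 or Blimp1-Treg 4 (limma adjusted p up to 0.0797) and with no filter on low values, and that on Igtp without any library other than Ebi3-Treg 1 (up to 0.135). The call on Igtp was also lost with no filter, no variance trend, no table term or median ratio scaling (limma adjusted p up to 0.316). The guanylate-binding proteins Gbp7 and Gbp8 were at -0.62 and -0.59 over both tables, with limma adjusted p = 0.0659 and 0.0727, and 0.0144 and 0.0128 with the replicate number as a block. With that block, 9 of the 23 were lower and 1 higher, against 8.94% lower and 13.5% higher over all genes. Near-identical members of these GTPase families can share reads, so single values are uncertain.

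The type I interferon response showed no called gene among 27 tested of 28, against 6.29% of all tested genes. In limma 1 of the 27 had an unadjusted p under 0.05, against 2282 of 12273 genes. The median log2 fold change was 0.09. Zbp1, a sensor of nucleic acids, was at -0.56, the kinase Eif2ak2 at -0.34, Ifit3 at 0.52 and the transcription factor Irf7 at 0.37. With the replicate number as a block 2 were higher, Ifit3 and Irf7 (limma adjusted p = 0.0115 and 0.0221), and 2 were lower, Zbp1 among them (0.0426). Of all genes, 13.5% were higher and 8.94% lower with that block. Of 8 genes that IL-10 induces in macrophages, 2 were lower in Ebi3-Treg and none higher, with a median of -0.01. The share over all genes was 2.93% lower and 3.37% higher. Il1rn, the IL-1 receptor antagonist, had 3.85, 4.41, 4.04 and 1.31 FPKM in Ebi3-Treg 1 to 4, against 18.0, 22.0, 10.7 and 12.4 FPKM in Blimp1-Treg 1 to 4. The populations were far apart, and the log2 fold change was -1.95 (SE 0.25, limma adjusted p = 0.00460). Nfil3, a transcriptional regulator, averaged 139 ± 45.9 FPKM in Ebi3-Treg libraries and 279 ± 64.0 FPKM in Blimp1-Treg libraries (SD, n = 4 each), with a log2 fold change of -1.02 (SE 0.23, limma adjusted p = 0.0378). Its call was lost when any library other than Ebi3-Treg 2 or Blimp1-Treg 1 was left out (limma adjusted p up to 0.135), and with no filter, no table term or median ratio scaling. Il4ra was at 0.38 and Etv3, a transcriptional repressor, at 0.45, and neither passed over both tables without the block (limma adjusted p = 0.389 and 0.587), which gave 2 higher and 2 lower. Il4ra also passed within the second table alone (limma adjusted p = 0.0285).

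**Figure D5:**
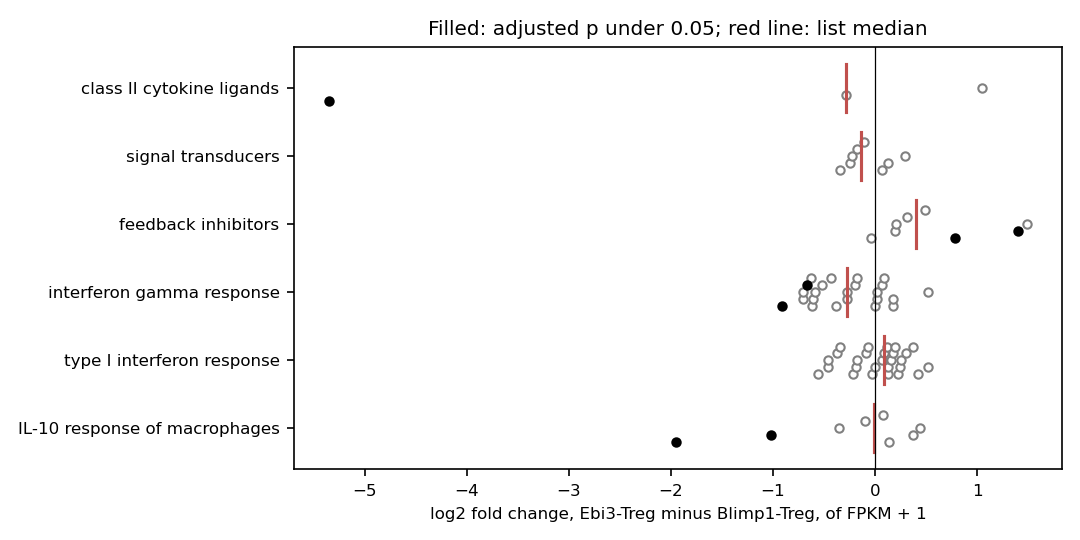
Log2 fold change (x axis, Ebi3-Treg minus Blimp1-Treg on log2(FPKM + 1)) of the tested ligands, signal transducers, inhibitors and response genes, 1 point a gene, filled where the adjusted p is under 0.05, with the list median as a red line. Socs1 and Ptpn6 are the filled points right of 0, and Il10, Iigp1, Igtp, Il1rn and Nfil3 those left of it.

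The transcripts most like each chain over the 8 libraries were sought by Pearson r of log2(FPKM + 1), centred on the mean of each table, among 8467 genes. All libraries share the population difference, their tables and their depth, so these correlations are descriptions. Nearest to Ifngr2 were Junb, a subunit of the transcription factor AP-1 (r = 0.993), Eif3f, a translation initiation factor (0.993) and Mtx1, a mitochondrial import protein (0.992). Nearest to Ifnar2 were Aldh2, a mitochondrial aldehyde dehydrogenase (0.996), Sh3bp5 (0.995) and Kctd2 (0.994). Nearest to Ifngr1 were Pla2g16 (0.995), the surface protein Cd48 (0.994) and Degs1, an enzyme of ceramide synthesis (0.994), and nearest to Ifnar1 were Adamtsl4 (0.991), Cd74, the invariant chain of MHC class II (0.989) and Golim4 (0.978). Nearest to Il10ra were Tor1aip1 (0.994), Dgkh (0.992) and Arhgap25 (0.990), and nearest to Il10rb were Acaa2 (0.987), Fahd2a (0.986) and the cold-inducible RNA-binding protein Cirbp (0.983). Among the chains themselves, r was 0.96 between Ifngr2 and Il10rb, 0.94 between Ifngr2 and Ifnar2, 0.85 between Ifnar2 and Il10rb and -0.85 between Ifnar1 and Ifngr1.

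Markers of other cells were read beside the chains as well. The 8 B cell markers summed to 49.2 to 248 FPKM in Ebi3-Treg and 32.5 to 171 FPKM in Blimp1-Treg. The 6 CD8 and NK cell markers summed to 12.2 to 64.1 FPKM in Ebi3-Treg and 11.4 to 34.3 FPKM in Blimp1-Treg, with Cd8a listed at 0 in 1 library. The 6 stromal and endothelial markers summed to 31.0 to 66.6 FPKM in Ebi3-Treg and 16.8 to 34.1 FPKM in Blimp1-Treg. Most of that sum was Pecam1, at 30.2 to 61.2 FPKM in Ebi3-Treg and 15.9 to 32.3 FPKM in Blimp1-Treg. The log2 fold change of Pecam1 was 0.77 (limma adjusted p = 0.163, and 0.00285 with the replicate number as a block). Cdh5, Pdpn and Ccl19 reached at most 0.176, 0.0527 and 0.217 FPKM in any library, and Col1a1 and Col1a2 at most 2.41 and 3.02 FPKM. The part of other cell types in the differences was not tested. The 6 Treg and T cell markers summed to 2652 to 3865 FPKM in Ebi3-Treg and 3489 to 5894 FPKM in Blimp1-Treg. Ctla4, the largest by mean, averaged 1110 ± 686 against 1934 ± 1293 FPKM. Cd3e averaged 748 ± 94.6 against 1021 ± 108 FPKM, without overlap, and Cd4 540 ± 95.4 against 596 ± 187 FPKM (SD, n = 4 each). None of the 6 passed over both tables, but Ctla4 and Cd3e did with the replicate number as a block (limma adjusted p = 0.0115 and 0.00876). Without both libraries numbered 1, which held the most B cell transcripts, the log2 fold change was 1.88 for Ifngr2 (limma adjusted p = 0.00417) and 0.74 for Ifnar2 (0.00424).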

How the data were processed

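The 8 Treg libraries were prepared with a SMART-Seq v4 low-input kit, per the labels' protocols. The build mm9 and the tools TopHat2 2.0.12, Bowtie2 2.2.3 and HTSeq 0.6.1 are named in the submitters' processing notes. Annotation, counting mode and gene lengths: not given in the sources used here. FPKM per gene were deposited by the authors in 2 tables, and depth was read from the steps between low FPKM values. Low-input libraries are amplified, so depth limits cover counting error only.

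Each column was assigned by the library name in its title. Genes reaching 1 FPKM in 4 or more of the 8 libraries were tested on log2(FPKM + 1), which understates changes of low genes, with limma 3.58.1 in R 4.3.3 (population and table as terms, variance trend, two-sided, Benjamini-Hochberg over all 12273 genes). Receptor balance was compared by exact permutation. Symbols came from a GENCODE table and promoters from RefSeq, both GRCm38, so no gene coordinates are given in mm9. Same-numbered libraries deviated together from their population means (r = 0.62, 0.89, 0.53 and 0.54 for numbers 1 to 4). Within tables r was 0.85 for 1 and 2 but -0.08 for 3 and 4. Blocked values are therefore given where they change the call on a chain over both tables. For other genes they are given in part only. Members and lists were chosen with earlier results of these data known. All chains, 4 genes per list by smallest p, Il10, Ifng, all tested neighbours and the 3 most similar genes per chain were named; others were named after their values were seen. Some genes of the lists are left unreported. The script was tested on simulated data.

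Alternatives were pseudocounts of 0.1 and 0.01, no filter or 5 FPKM, no variance trend, no table term, median ratio scaling, quantile normalization, a replicate block and left-out libraries. The fits of Il10, Socs1, Ptpn6, Igtp, Iigp1, Nfil3 and Il1rn under these were added after the data were seen.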

Additional observations from a re-analysis of the deposited data

Results flagged for a closer look

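In 1 of the 18 sets of 4 libraries examined (6 chains and 3 chain ratios in each population), a library stood far from the others. The ratio of Il10ra to Il10rb was 0.228 in Ebi3-Treg 2, against 0.623 to 0.666 in the other Ebi3-Treg libraries. Its gap to the nearest library was 0.901 of the whole range, above Dixon's 95% critical value for 4 libraries. Chance flags about 1 in 20 such sets. Blimp1-Treg 2 had the lowest ratio of its population too, at 0.531, and the cause was not tested.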

How the results depend on the processing

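No log2 fold change of a chain reversed under the alternatives run. Ifngr2 kept its call in all 19 (1.5 to 1.91, limma adjusted p up to 0.0287). The number of chains called over both tables, 2, became 4 with a replicate block and was 1 to 2 when 1 library was left out. It was 3 without both libraries numbered 1 and 3 without both numbered 2. For replicates 1 and 2 it was 0, against 5 with the block and 0 to 0 with a library left out. For replicates 3 and 4 it was 2, against 1 with no variance trend and 3 with the 5 FPKM filter, median ratio scaling or quantile normalization. There it fell when any 1 library was left out, which leaves 1 library in an arm. The block changed the calls on Ifngr1 and Il10ra and on no other chain over both tables.

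Ifngr2 minus Ifngr1 was 2.29 and Ifnar2 minus Ifnar1 0.48 in the exact tests within tables (adjusted p = 0.0833) and under the replicate block (adjusted p = 0.125), neither passing and neither able to. They were 2.32 and 0.56 without both libraries numbered 1, and 1.95 and 0.50 without both numbered 2, again with too few libraries to pass. With 1 library left out they were 2.09 to 2.47 and 0.36 to 0.58, and neither passed when any 1 Ebi3-Treg library was left out (exact tests). In each of those exact tests Ifngr2 minus Ifngr1 kept an unadjusted p = 0.0286, with 35 splits, and its adjusted p was 0.0857. For Ifnar2 minus Ifnar1 the unadjusted p of these exact tests was 0.0857 to 0.114. Il10ra minus Il10rb was -1.33 to -0.65, passing without Blimp1-Treg 2 alone. A fit with 1 library in an arm assumes that it varies like the others. Every chain had at least 441 fragments in each library by the reference length, and the widest 95% interval was that of Il10ra (-1.60 to 0.09).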
